A study of Homo sapiens with 4 samples.

Results

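The TRIM genes encode proteins that share an amino-terminal module of a RING finger, 1 or more B-boxes and a coiled coil. The RING finger makes most of them E3 ubiquitin ligases, which pass ubiquitin from an E2 enzyme to a target protein and so mark it for destruction or change how it signals. The carboxy-terminal part differs between members and sets what each one binds. Monocytes and macrophages use several of them against viruses, and some of these antiviral members are themselves switched on by interferon. Their levels were compared in THP-1, a monocyte-like line established from a human leukaemia, after the cells received either a non-targeting antisense oligonucleotide or one aimed at the long noncoding RNA SGOL1-AS1.

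Members were chosen by name: protein-coding genes whose symbol is TRIM followed by a number only, with TRIM25 left out. This gave 47 of the 27106 genes in the deposited table. A further 19 protein-coding genes with such a symbol in GENCODE 29 are not analysed here. Following the rule, 5 members were set apart as antiviral, TRIM5, TRIM21, TRIM22, TRIM14 and TRIM38, and the other 42 formed the rest. Both groups consist of total RNA libraries labelled day 5, 2 libraries with the non-targeting oligonucleotide (non-targeting 1 and 2) and 2 with the oligonucleotide against SGOL1-AS1 (knockdown 1 and 2). All cells belong to the same line and received an oligonucleotide by transfection, and no untreated cells are among the samples. The labels do not say whether the libraries of a group come from separate cultures, so p-values measure only spread between these libraries, which may be technical. In limma this spread is moderated towards a trend fitted over all tested genes. The printed errors are therefore not the spread of a member's own libraries alone.

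The libraries held 41435922 to 51851314 reads in genes. The targeted RNA, now named SGO1-AS1, was covered by 24 and 21 reads (non-targeting) against 12 and 17 (knockdown), and its log2 difference of -0.48 ± 0.37 (SE) did not pass the test (limma, adjusted p = 0.556). Its level therefore does not check the labels. Neither knockdown column is named as the labels name that group. Both were placed there by elimination, and the direction of each difference rests on that placement. Of 12 monocyte markers 11 are in the table, and their summed normalised count was 98088 to 106540 across the libraries. LYZ stood at 36975 to 40116 and CD14 at 94.7 to 110.4. The T cell markers CD3D, CD3E and CD2, the B cell marker MS4A1, the haemoglobin gene HBB and the epithelial gene EPCAM are not among the rows analysed here.

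Promoter sequence was inspected because interferon acts on its target genes through short DNA elements close to their starts. The inspection came after the fit of the differences described below. RefSeq promoter windows on GRCh38.p14, running from 250 bases before to 50 bases after each start, were found for 37 of the 47 members. They were searched on both strands for GAAA, any 2 bases and GAAA again, the core of the interferon-stimulated response element, and for TTCNNNGAA, the gamma-activated site. The first was present in 3 of the 4 antiviral members with a window (TRIM5, TRIM14 and TRIM21; the window of TRIM38 had none) and in 5 of the 33 others (TRIM2, TRIM16, TRIM34, TRIM44 and TRIM69). Among tested protein-coding genes with a window, 4.05% held it, and among all 35116 windows 3.57% did. The second was present in none of the 4 antiviral members and in 5 of the 33 others, against 8.73% of tested protein-coding genes. A match is a description of letters and was not tested as a binding site. The windows of TRIM5 (chr11:5685025-5685324, minus strand), TRIM14 (chr9:98119173-98119472, minus strand), TRIM21 (chr11:4393653-4393952, minus strand), TRIM44 (chr11:35662525-35662824, plus strand) and TRIM38 (chr6:25962552-25962851, plus strand) are given 5′ to 3′ along the gene, with matches to the response element core in capitals. They show the 3 antiviral members with a match, 1 abundant member outside that group with a match, and the antiviral member without.
TRIM5: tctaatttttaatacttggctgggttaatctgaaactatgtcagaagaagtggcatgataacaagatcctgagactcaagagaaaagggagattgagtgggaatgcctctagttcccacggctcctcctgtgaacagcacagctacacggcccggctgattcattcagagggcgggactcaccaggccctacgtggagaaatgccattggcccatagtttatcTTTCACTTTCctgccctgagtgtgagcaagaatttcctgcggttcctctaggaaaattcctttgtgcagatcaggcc
TRIM14: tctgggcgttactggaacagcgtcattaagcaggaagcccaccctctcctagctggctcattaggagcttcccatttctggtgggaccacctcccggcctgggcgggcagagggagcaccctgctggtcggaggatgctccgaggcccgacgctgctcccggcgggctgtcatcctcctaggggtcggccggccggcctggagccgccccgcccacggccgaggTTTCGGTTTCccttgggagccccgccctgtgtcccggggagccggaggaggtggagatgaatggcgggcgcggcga
TRIM21: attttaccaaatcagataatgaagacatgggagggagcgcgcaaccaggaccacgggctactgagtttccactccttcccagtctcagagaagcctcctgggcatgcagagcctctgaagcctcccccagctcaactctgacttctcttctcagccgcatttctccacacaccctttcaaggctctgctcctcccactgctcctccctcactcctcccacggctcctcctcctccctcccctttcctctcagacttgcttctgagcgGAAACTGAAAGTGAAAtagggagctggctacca
TRIM44: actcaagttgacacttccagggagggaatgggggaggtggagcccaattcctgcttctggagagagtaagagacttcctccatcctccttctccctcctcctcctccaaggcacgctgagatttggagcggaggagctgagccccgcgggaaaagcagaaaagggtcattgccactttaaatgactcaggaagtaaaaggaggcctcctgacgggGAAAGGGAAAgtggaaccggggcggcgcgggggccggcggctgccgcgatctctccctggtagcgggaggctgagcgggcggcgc
TRIM38: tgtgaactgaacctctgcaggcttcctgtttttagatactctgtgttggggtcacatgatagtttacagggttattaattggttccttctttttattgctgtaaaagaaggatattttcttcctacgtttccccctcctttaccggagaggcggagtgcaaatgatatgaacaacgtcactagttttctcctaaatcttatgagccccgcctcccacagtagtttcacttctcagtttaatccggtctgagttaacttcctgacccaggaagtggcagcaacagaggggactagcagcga
In TRIM5 the match begins 27 bases before the start and in TRIM14 26 bases before it, both as the reverse complement. TRIM21 has 2 overlapping matches that begin 18 and 24 bases after its start. The match of TRIM44 begins 35 bases before its RefSeq start. As a check of orientation, bases after the start were looked up in GENCODE 29 transcripts, and they were found for the other 4 windows but not for that of TRIM44.

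Antiviral members were among the most abundant of the family. On the scale of normalised count per exonic kilobase, averaged over the 4 libraries, TRIM28 led at 6020, followed by TRIM14 at 3201, TRIM21 at 2905 and TRIM22 at 1403. TRIM28 is KAP1, the corepressor that KRAB zinc finger proteins bring to DNA. TRIM5 at 463 per kilobase and TRIM38 at 320 per kilobase were 13th and 16th of the 47. Above these 2, TRIM44, TRIM58, TRIM33, TRIM65 and TRIM11 lay between 597 and 620 per kilobase and overlapped one another across libraries. At the low end TRIM50, TRIM34, TRIM69, TRIM67, TRIM61, TRIM63 and TRIM55 were at 1.83 per kilobase or below. The muscle genes TRIM55 and TRIM63 are among them. All 47 members together took 0.26% of the normalised counts in each non-targeting library and 0.251% in each knockdown library.

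**Figure D1:**
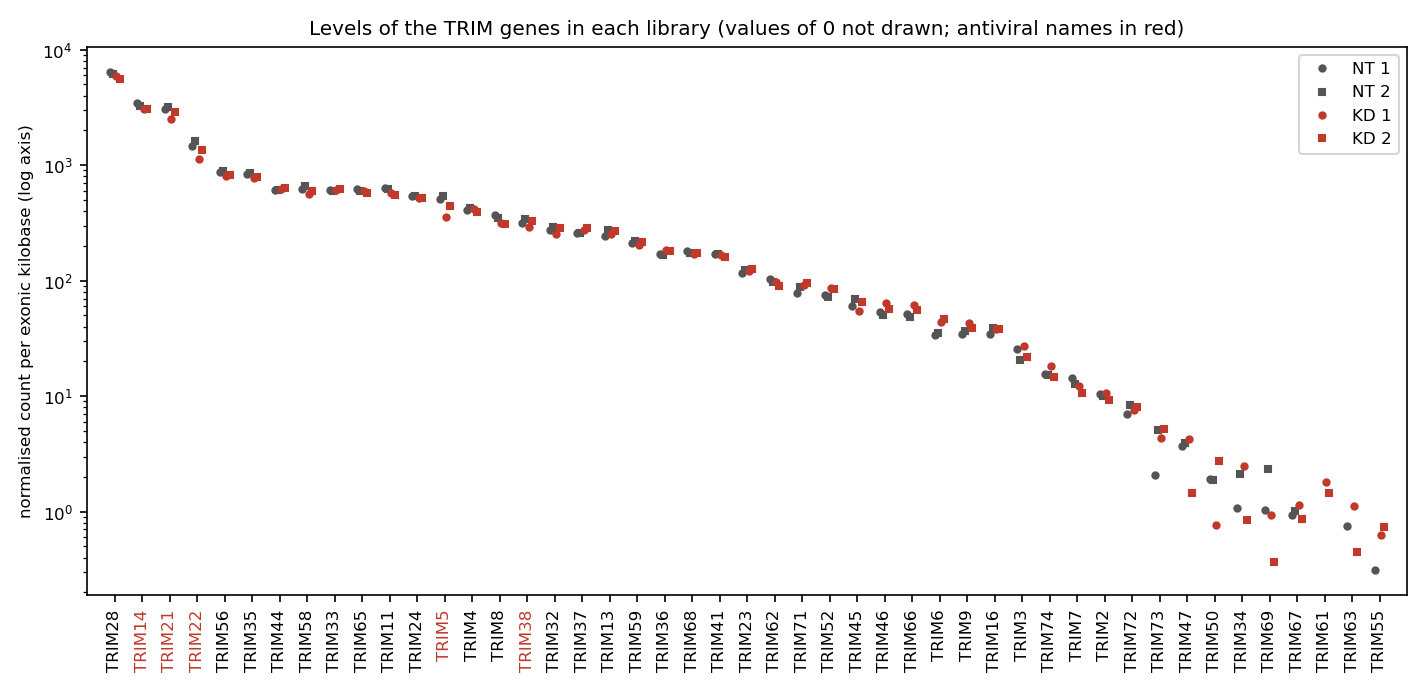
Level of each of the 47 TRIM genes as normalised count per exonic kilobase (log axis) in the 2 non-targeting (NT, grey) and 2 knockdown (KD, red) libraries, ordered by the mean. The levels run from 6020 for TRIM28 to under 1 for TRIM55, and the antiviral TRIM14, TRIM21 and TRIM22 follow TRIM28.

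Of the 47 members, 41 had a mean normalised count of at least 10 and were tested. The remaining 6 (TRIM34, TRIM50, TRIM55, TRIM61, TRIM63 and TRIM67) were below it and had between 0 and 11 reads in any library, too few for a difference to be detectable at this depth.

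TRIM5 and TRIM22 fell in the knockdown, TRIM8 fell just past the threshold, and no member rose. These 3 of 41 members (7.32%) compare with 3.4% of all 19398 tested genes called lower and 0.851% called higher (limma on log2 of the normalised count plus 1, adjusted p under 0.05). Among tested protein-coding genes alone the shares were 4.76% lower and 0.67% higher. With whole reads recovered from the values, edgeR called TRIM5 and TRIM22 lower (all genes: 2.87% lower, 0.82% higher) and DESeq2 called TRIM5 alone (1.96% lower, 0.345% higher). Of all genes called by limma 80% were lower, a share that was 69.1% with the same median, 70.2% after quantile normalisation and 55.5% when library totals were made equal. In bulk RNA, a smaller share of cells that make a transcript and less of it per cell cannot be told apart.

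TRIM5, which binds the capsids of incoming retroviruses (ENSG00000132256, chr11:5663557-5938619 on GRCh38, minus strand), was the member with the smallest adjusted p. Its normalised count was 2427 and 2621 with the non-targeting oligonucleotide and 1708 and 2149 after knockdown. Both knockdown values lay below both non-targeting values, with knockdown 1 the lowest of the 4. The means were 2524 ± 137 (SD, n = 2) and 1928 ± 312, a log2 difference of -0.40 ± 0.08 (SE; limma, adjusted p = 0.00397). edgeR gave an adjusted p of 0.0102 and DESeq2 one of 0.00617. The call ended with robust empirical Bayes (adjusted p = 0.0659, at the same fold change) and with no mean-variance trend (0.424).

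TRIM22, an interferon-induced restriction factor of several viruses (ENSG00000132274, chr11:5689689-5737089, plus strand), stood at 8882 and 9808 in non-targeting cells and at 6867 and 8223 after knockdown. The groups did not overlap, and again knockdown 1 was the lowest. The log2 difference was -0.31 ± 0.07 (SE; limma, adjusted p = 0.00647; edgeR, 0.0158). DESeq2 gave -0.30 with an adjusted p of 0.343. The annotated span of TRIM22 lies inside that of TRIM5 on the other strand, but the exons of these 2 genes share no bases in GENCODE 29. Of the exonic bases of TRIM5, 7.95% are shared with another annotated gene on its own strand, and 10.7% of those of TRIM22 are shared with OR56B1. The call ended without non-targeting library 2 (-0.24, adjusted p = 0.0634), with robust empirical Bayes (0.111), with no trend (0.456), after quantile normalisation (0.0615) and when library totals were made equal (0.0578).

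The other 3 antiviral members did not pass the threshold. TRIM21, the cytosolic receptor for antibody-coated particles (ENSG00000132109, chr11:4384897-4393696, minus strand), was at 5863 and 6096 against 4855 and 5598 after knockdown. Its groups did not overlap, and the log2 difference was -0.20 with a 95% interval of -0.32 to -0.07 (limma, adjusted p = 0.0671). Robust empirical Bayes called it lower (0.0356). A fit that leaves out a knockdown library takes its spread from the non-targeting pair and assumes that the lone knockdown library varies like it. Such fits gave -0.30 without knockdown library 2 (adjusted p = 6.84e-05) and -0.095 without knockdown library 1 (0.461). TRIM14, a member without a RING finger that works beside the adaptor MAVS on mitochondria (ENSG00000106785, chr9:98069275-98119212, minus strand), was at 18944 and 17816 against 16649 and 16620. The 2 knockdown libraries were nearly equal and both below the non-targeting pair, at a log2 difference of -0.14 with an interval of -0.25 to -0.04 (limma, adjusted p = 0.111). NANS on the other strand shares 7.72% of its exonic bases. TRIM38, which restrains Toll-like receptor and TNF signalling (ENSG00000112343, chr6:25962802-25991226, plus strand), was at 2961 and 3245 against 2764 and 3083. Its groups overlapped, and the log2 difference of -0.09 had an interval of -0.22 to 0.05 (limma, adjusted p = 0.534).

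**Figure D2:**
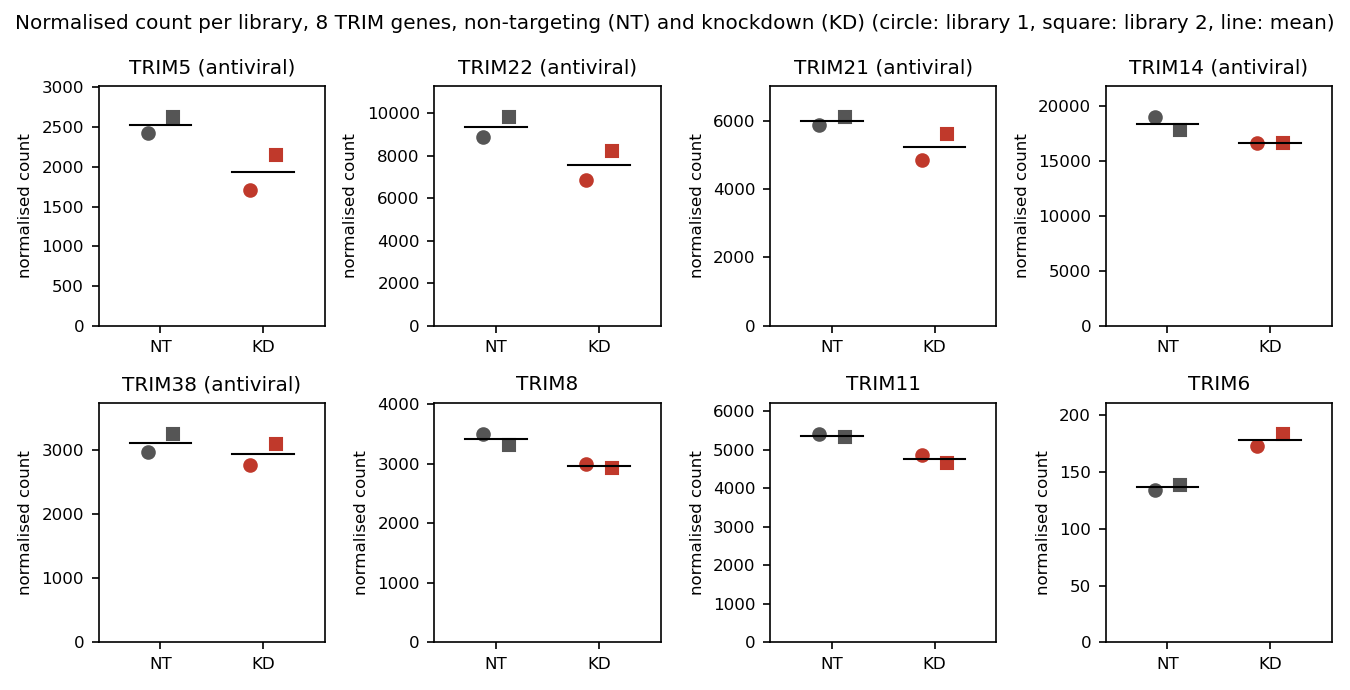
Normalised count of 8 TRIM genes in each library (vertical axis from 0; circles library 1, squares library 2, lines the group means). TRIM5, TRIM22 and TRIM21 are lowest in knockdown library 1, TRIM14 and TRIM8 are nearly equal in both knockdown libraries, and TRIM6 is higher in both.

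TRIM8 was the only other member past the threshold. It is a RING ligase linked to cytokine and NF-kB signalling, and it stood at 3500 and 3314 normalised counts against 2985 and 2933 after knockdown. The log2 difference was -0.20 ± 0.06 (SE; limma, adjusted p = 0.0429), and the groups did not overlap. The call ended in 10 of 15 alternatives, among them edgeR (adjusted p = 0.0641), DESeq2 (0.115), the same median in every library (0.072), and the fits that left out the first (0.475) or the second (0.0986) non-targeting library or knockdown library 2 (0.0654). TRIM8-DT on the other strand shares 14.1% of its exonic bases. TRIM11, linked to the clearance of misfolded proteins, differed by -0.17 with an interval of -0.28 to -0.06 and did not pass (limma, adjusted p = 0.0684). Its counts were 5417 and 5324 against 4867 and 4669. Robust empirical Bayes called it lower (0.0479). With a lone knockdown library it was at -0.20 without knockdown library 1 (adjusted p = 0.0272) and at -0.14 without knockdown library 2 (0.186).

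The 5 antiviral members were all on the negative side, and the rest spread on both sides of 0. The groups also differed in level, and TRIM5, the least abundant of the 5, had a mean normalised count of 2226. Of the other members above that mean, TRIM28, TRIM56, TRIM11, TRIM24, TRIM35, TRIM8 and TRIM65 were negative, and TRIM44 and TRIM33 positive. The part of level in the contrast was not tested. The antiviral median log2 difference was -0.20, with 5 of 5 negative, 4 of 5 with both knockdown values below both non-targeting values, and 2 of 5 called. Over all tested genes 52.5% were negative and 3.4% called lower, and over protein-coding genes 59.6% and 4.76%. The 36 other tested members had a median of -0.04, with 19 negative and 17 positive, and 1 was called. The median of all 19398 tested genes was -0.01. The difference between these medians was not tested, because the 5 were set apart with results of these data known. Over all 41 tested members, 15 (36.6%) had both knockdown values below both non-targeting values and 9 (22%) had both above. Among all tested genes these shares were 25.1% and 21.6%, and among protein-coding genes 30.9% and 18%. Among the 36 members outside the antiviral 5, the shares were 30.6% below and 25% above.

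**Figure D3:**
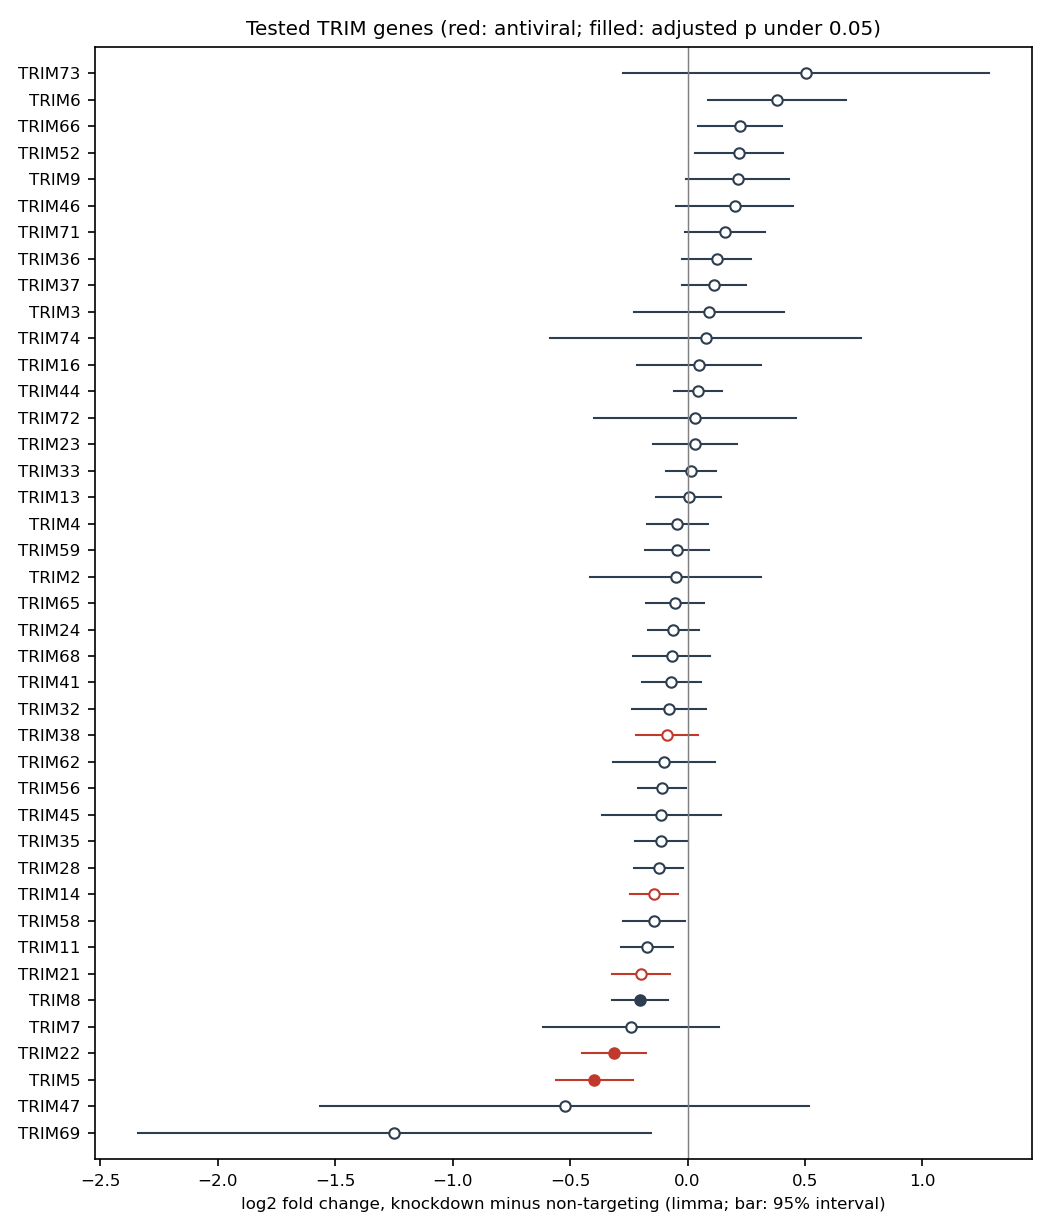
Log2 difference between knockdown and non-targeting libraries for the 41 tested TRIM genes, with 95% intervals from limma (red, antiviral; filled, adjusted p under 0.05). TRIM5, TRIM22 and TRIM8 are filled, the 5 antiviral genes lie between -0.40 and -0.09, and TRIM69, TRIM47 and TRIM73 have the widest intervals.

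For 4 of the 5 antiviral members knockdown library 1 was further down than knockdown library 2. Relative to the non-targeting mean, TRIM5 was at -0.56 in knockdown 1 and -0.23 in knockdown 2 on the log2 scale, TRIM22 at -0.44 and -0.18, and TRIM21 at -0.30 and -0.10. TRIM38 was at -0.17 and -0.01. TRIM14 was at -0.14 in both. The median of the 5 was -0.30 in knockdown 1 and -0.14 in knockdown 2, while the median of the other 36 was -0.01 and -0.03. TRIM8 (-0.19 and -0.22) and TRIM11 (-0.14 and -0.20) were as far down in the second knockdown library as in the first. Without knockdown library 1 the antiviral median was -0.14, with TRIM5 at -0.23 and TRIM22 at -0.18. Without knockdown library 2 it was -0.30.

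**Figure D4:**
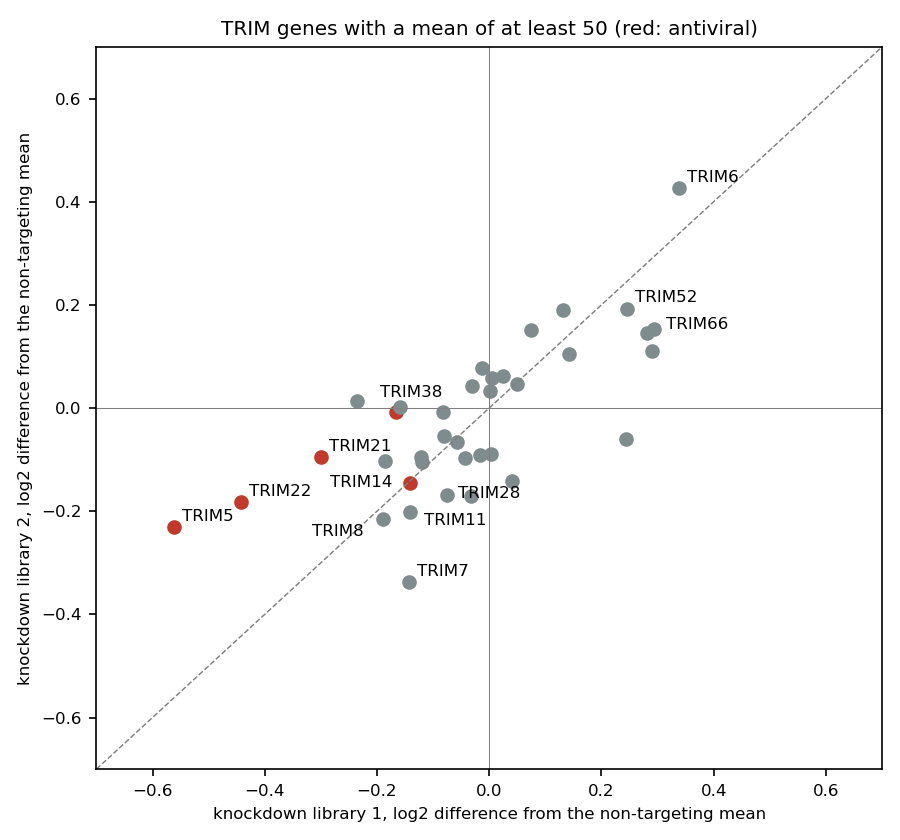
Log2 difference of each knockdown library from the non-targeting mean for TRIM genes with a mean normalised count of at least 50 (horizontal, knockdown 1; vertical, knockdown 2; red, antiviral; dashed line, equal). TRIM5, TRIM22 and TRIM21 lie above the line, further down in knockdown 1, and TRIM14 lies on it.

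None of the 4 members with a PHD finger and a bromodomain, which act on chromatin, passed the test. TRIM28, the most abundant member, was at 25901 and 24711 against 24028 and 22494, a log2 difference of -0.12 with an interval of -0.23 to -0.02 that did not pass (limma, adjusted p = 0.202). With a lone knockdown library it was at -0.17 without knockdown library 1 (adjusted p = 0.0391) and at -0.074 without knockdown library 2 (0.532). Its relatives TRIM24 and TRIM33 were at -0.06 (interval -0.17 to 0.05) and 0.02 (-0.09 to 0.12). TRIM66, which lacks the RING finger, was at 0.22 with an interval of 0.04 to 0.40 (limma, adjusted p = 0.171), from 608.8 and 565.4 to 719.3 and 652.4. TRIM56, also known for antiviral activity although outside the 5, was at -0.11 (interval -0.21 to -0.01; limma, adjusted p = 0.256). TRIM44, which has no RING finger and whose window holds a match, was at 0.04 (interval -0.06 to 0.15).

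No member on the positive side passed the test in limma, edgeR or DESeq2, and 3 of 41 had an unadjusted p under 0.05 in limma, against 10 on the negative side. Over all 19398 tested genes these counts were 1197 higher and 2139 lower, and over the 13283 protein-coding ones 614 higher and 1981 lower. TRIM6, a ligase that builds free ubiquitin chains for the kinase IKBKE, was the furthest up among those with a mean of at least 50. It stood at 134.4 and 138.3 against 172.6 and 183.6 after knockdown, with no overlap (limma, log2 difference 0.38, interval 0.09 to 0.68, adjusted p = 0.143). A read-through transcript into TRIM34 shares 29.3% of its exonic bases. TRIM52 was at 0.22 (interval 0.03 to 0.40; limma, adjusted p = 0.195), and 28.5% of its exonic bases overlap a noncoding gene on the other strand. Of the members with a COS box, through which they bind microtubules, TRIM55, TRIM63 and TRIM67 were too low to be tested. The tested TRIM9, TRIM36 and TRIM46 were all higher in both knockdown libraries, at 0.21, 0.12 and 0.20, and none of the 3 passed. Of all tested genes 21.6% were higher in this way, and of protein-coding ones 18%. MID1 and MID2, relatives with a COS box under other symbols, were at -0.17 and -0.24 and did not pass either. Of the 4 members with NHL repeats, TRIM71, a repressor of messenger RNAs, was at 0.16, TRIM3 at 0.09, TRIM2 at -0.05 and TRIM32 at -0.08, and none passed. The membrane-anchored TRIM13 and TRIM59 were at 0.01 and -0.04. SMC4 on the other strand, at a mean normalised count of 18606, shares 19.8% of the exonic bases of TRIM59. Another annotated gene on its own strand shares 14.5% of them, and KCNRG shares 13.4% of those of TRIM13. TRIM7 was at -0.24 with a wide interval of -0.61 to 0.13.

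The lowest tested members had the widest errors. TRIM69 was covered by 10 and 23 reads against 9 and 3 after knockdown, and its log2 difference of -1.25, the largest of the family, had an interval of -2.34 to -0.15 and did not pass (limma, adjusted p = 0.214). The standard error ran from 0.05 to 0.09 in the 27 tested members with a mean of at least 500 and from 0.10 to 0.53 in the 14 below. TRIM73 and TRIM74, near-identical copies of TRIM50 on chromosome 7, and TRIM16, which has a close copy in TRIM16L, are uncertain because counting can split or drop shared reads.

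The members on the short arm of chromosome 11 had values on both sides of 0. They include the antiviral TRIM21, TRIM5 and TRIM22. TRIM6 (chr11:5596109-5612958), the next tested member beside TRIM5 and TRIM22, was at 0.38, while TRIM5 was at -0.40 and TRIM22 at -0.31. TRIM34, between them, had 3, 6, 7 and 2 reads and was not tested, and 83% of its exonic bases are shared with a read-through transcript of TRIM6 and TRIM34. TRIM68, the neighbour of TRIM21, was at -0.07 (interval -0.23 to 0.10) against -0.20 for TRIM21. TRIM3 was at 0.09 and turned to -0.068 when non-targeting library 2 was left out and to -0.06 when knockdown library 1 was. TRIM66 was at 0.22, and TRIM44 (chr11:35662805-35818007), also on the short arm, at 0.04.

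Among the members whose window holds the response element core, TRIM5, TRIM21 and TRIM14 were at -0.40, -0.20 and -0.14. TRIM44, TRIM16 and TRIM2 were at 0.04, 0.05 and -0.05, TRIM69, with few reads, was at -1.25, and TRIM34 was not tested. TRIM38, at -0.09, had no match. TRIM22 and TRIM8, both called lower, had no window and could not be searched, and the same holds for TRIM28 and TRIM11.

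PML, which builds the nuclear bodies that carry its name and is a TRIM gene under another symbol, fell. It went from 10601 and 10403 to 7921 and 8301 normalised counts (limma, log2 difference -0.37 ± 0.05 SE, adjusted p = 6.89e-05). Of the 5 tested relatives under other symbols it was the only one called, with MEFV, the pyrin gene, at -0.17, MID2 at -0.24, MID1 at -0.17 and RNF135 at 0.03. The median of these 5 was -0.17.

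The 12 tested E2 genes encode the class of enzymes that supplies TRIM ligases with ubiquitin, and variants that do not carry it. Of the 12, 0 were called lower and UBE2V1, a variant, was called higher, against 3.4% lower and 0.851% higher over all tested genes. Their median was -0.03. UBE2V1 was at 149.8 and 150.5 against 217.7 and 215.6 (limma, log2 difference 0.53 ± 0.13 SE, adjusted p = 0.0226), a call that ended with DESeq2 (0.14). Its partner UBE2N, which joins it in building chains that signal without destroying the target, was at 0.04. Among 16 tested genes of the cytosolic sensing pathways in which TRIM proteins act, 3 were called lower and 0 higher, with a median of -0.07. The background was 3.4% lower and 0.851% higher over all tested genes and 4.76% lower over protein-coding ones, and DESeq2 called 1 of the 16. The RNA sensors RIGI and IFIH1 fell by 0.47 and 0.40 on the log2 scale (limma, adjusted p = 0.000515 and 0.000277), and IRF7, which drives interferon genes, fell by 0.73 (adjusted p = 0.00746), from 208.4 and 159.0 to 108.4 and 110.6. With DESeq2 the calls of RIGI (adjusted p = 0.163) and IRF7 (0.054) ended. The adaptor MAVS, at 0.09, the kinase TBK1, at -0.04, and the complex of MAP3K7, TAB1, TAB2 and TAB3, between -0.07 and 0.00, did not pass. STAT2, which carries the interferon signal to the response element, fell by 0.32 (limma, adjusted p = 0.00325), and its groups did not overlap. IRF1, listed with STAT2, was at -0.20 and did not pass (limma, adjusted p = 0.053). IRF9, also listed, is not among the rows analysed here. Of the 11 monocyte markers, TYROBP was called lower (-0.24, adjusted p = 0.026) and 10 did not pass (background 3.4% lower). DESeq2 did not call TYROBP (adjusted p = 0.0718). The monocyte markers had a median of -0.14, with 9 of 11 negative, beside the antiviral median of -0.20. PECAM1, listed with stromal markers and also made by monocytes, was called lower (-0.31, adjusted p = 0.00104). The part of these markers in the TRIM values was not tested.

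**Figure D5:**
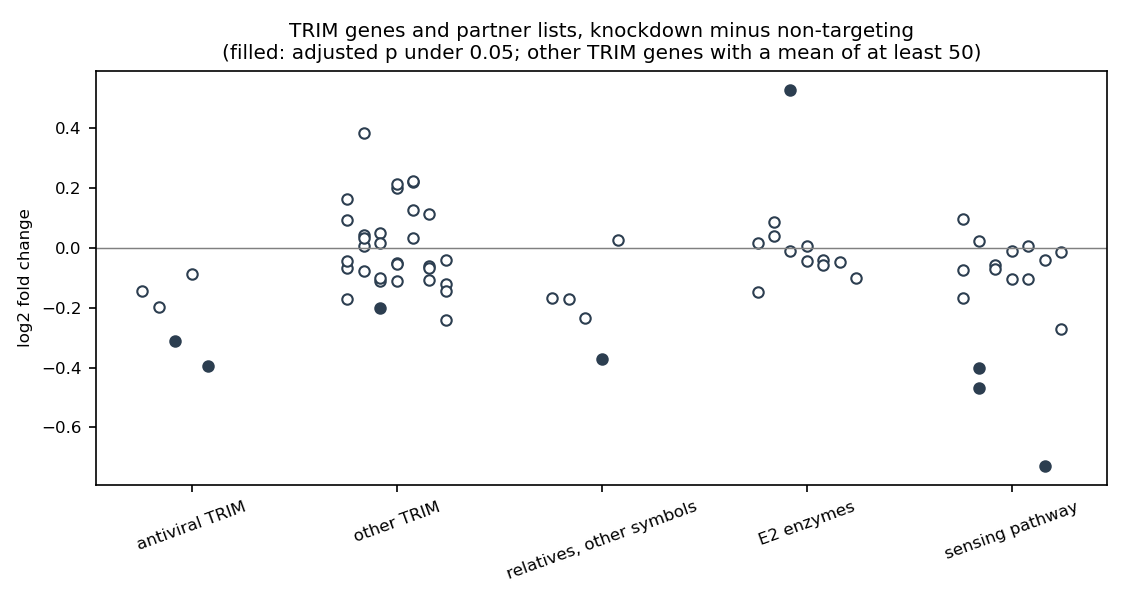
Log2 difference for the antiviral TRIM genes, the other TRIM genes with a mean of at least 50, TRIM relatives under other symbols, E2 enzymes with their variants, and genes of the sensing pathways (each point a gene; filled, adjusted p under 0.05 by limma). The antiviral points lie between -0.40 and -0.09, the other TRIM genes spread on both sides of 0, and IRF7 at -0.73 and UBE2V1 at 0.53 are the extremes of the partner lists.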

How the data were processed

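The deposited table holds a normalised signal for each gene, namely reads over a library size factor. Per the submitters' processing notes, STAR 2.5.1b, DESeq2 and GRCh38 were used, with no role stated. Which annotation and counting tool were used, and whether counting used strand, is not given in the sources used here. Every value was a whole multiple of the value of 1 read in its library (within 0.01), so whole reads were recovered. Each row has at least 2 reads in knockdown library 1, so genes below that are not analysed here. Symbols were matched for 26579 rows and positions from GENCODE 29 for 26077.

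Genes with a mean of at least 10 (19398) entered limma 3.58.1 (R 4.3.3) on the log2(value + 1) scale, with a mean-variance trend and Benjamini-Hochberg adjustment over all of them. The pseudocount shrinks fold changes of low genes, whose limma values lay on either side of those from edgeR. Differences are knockdown minus non-targeting, and intervals are 95% intervals from the moderated error. edgeR 4.0.16 and DESeq2 1.42.0 on the recovered reads were alternatives. The fit was tested on simulated data. Levels were divided by exonic length only to rank members.

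Members, lists, named genes and alternatives were chosen with earlier results of these data known. Members named were the antiviral 5, called members, the 6 of highest mean, the 3 furthest uncalled members in each direction with a mean of at least 50, the neighbours of TRIM5, TRIM21 and TRIM22, and the PHD-bromodomain members; others given by name were chosen after their values were seen. Promoter letters are from RefSeq. The result of 1 listed gene is not reported here. A planned search for RING patterns was not run, because no protein sequences were used here.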

Additional observations from a re-analysis of the deposited data

How the results depend on the processing

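The count of TRIM genes called lower was 3. It was 1 with the same total in every library, after quantile normalisation and with DESeq2, 0 with no mean-variance trend, and 5 at a threshold of 0.1. With robust empirical Bayes it was again 3, with TRIM11 and TRIM21 in place of TRIM5 and TRIM22 beside TRIM8. With 1 library left out it ran from 1 to 5, and the lone library of a group is then assumed to vary like the other group. No TRIM gene was called higher under any alternative. With no trend 0 of all 19398 tested genes were called by limma, although 2337 had an unadjusted p under 0.05, and edgeR called 556 lower and 159 higher. The antiviral median ran from -0.30 to -0.14 over the 15 alternatives. The median of the other members, -0.04, was -0.0039 with no filter, 0.014 with equal totals and -0.014 after quantile normalisation, and ran from -0.064 to -0.0059 with 1 library left out. Of 269 refits of the named members, 244 kept direction and side of the threshold, 18 lost a call, 5 gained one and 2 turned direction, both of TRIM3, which ran from -0.068 to 0.25 with 1 library left out. The cause of these changes was not tested. No paired analysis was possible because 1 of the 2 numbers in the knockdown column names is not in the labels, and only 1 also occurs in the non-targeting group.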
